A study of Rattus norvegicus with 24 samples.

Results

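Genes of the actin cytoskeleton and of smooth muscle were followed in rat kidney after a change of dietary salt. The set held 7 genes, chosen by symbol with earlier results of these data known: Actb, Tmsb10, Pdlim1, Tagln, Des, Actg2 and Myl2. They covered 14 of the 3742 probe identifiers of the array, and 7 of the 1766 identifiers with a value on at least 1 array, 1 for each gene. Total RNA from kidney was hybridised to 24 cDNA arrays, each with 2 channels. Each array set a rat numbered 1 to 3 against a rat of the same strain with a higher number, and the labels describe the contrast as LS against HS in a study of Dahl salt-sensitive hypertension. There were 4 groups of 3 rat pairs, each pair hybridised on 2 arrays with Cy3 and Cy5 exchanged: SS at 3 days, SS overnight, SS-13BN/Mcw at 3 days and SS-13BN/Mcw overnight. SS is the Dahl salt-sensitive rat, and SS-13BN/Mcw is a consomic strain that carries a Brown Norway chromosome 13 in place of the SS one, so all groups share the rest of the SS genome. No age, sex or dietary salt content is given by the labels. The rats numbered 1 to 3 recur at both times in each strain, so both groups of a strain likely share those animals.

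All values below are deposited log ratios between the rats of a pair, after median centring of the arrays and averaging of both arrays of a pair. Neither the log base nor the numerator is stated. Folds are therefore left out, and a gene is only said to be positive or negative, with no reading as up or down with salt. An array held 877 to 1412 values, and precision is limited by how few arrays there are. Exchanging the dyes did not turn the deposited sign: once the mean of the arrays of a dye orientation was removed, both arrays of a pair correlated at r from 0.169 to 0.825 in all 12 pairs. The arrays were therefore not turned, and values after turning by dye are given beside the tests. Without that removal the same correlations ran from -0.0595 to 0.749, so the sign of every value rests on this reading of the table. Turning changed the sign of each array with the low-numbered rat in Cy3. A turned pair value, the mean after that change, therefore reflects only the difference between its dye orientations and is smaller than it. Its sign depends on which orientation is turned. Each SS group lay in a run of slide numbers of its own, so slide order cannot be told apart from strain, or from time in SS. A ratio shows no level, so the labelled tissue could not be checked by the absence of markers. Of 27 proximal tubule markers, 17 had a value on the array.

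Actin filaments form when actin monomers join end to end, and proteins that hold monomers, cap filaments or cross-link them set how much filament a cell has. Actb encodes the beta-actin of nearly all cells. Tmsb10 encodes thymosin beta-10, a small protein that binds actin monomers, and Pdlim1 encodes a PDZ and LIM domain adaptor that binds alpha-actinin on actin stress fibres. Tagln (transgelin, SM22-alpha), Actg2 (smooth muscle gamma-actin) and Des (desmin, the intermediate filament of muscle) are markers of contractile cells, which in kidney lie mainly in vessel walls and the mesangium. Myl2 encodes the regulatory myosin light chain of ventricular and slow skeletal muscle. In bulk tissue, fewer cells of a type and less RNA per cell cannot be told apart.

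Promoter sequence of RefSeq (build GRCr8, 250 bases before to 50 after the gene start, written along the gene strand) was matched to 4 of the 7 genes. It is shown for Tmsb10 and Pdlim1, whose pair values lay on the positive side throughout, and for Des, whose values did not. Capitals mark the GC box GGGCGG, read on both strands, and in Tmsb10 also the TATA motif at position -31.
Tmsb10, chr4:106569091-106569390, minus strand: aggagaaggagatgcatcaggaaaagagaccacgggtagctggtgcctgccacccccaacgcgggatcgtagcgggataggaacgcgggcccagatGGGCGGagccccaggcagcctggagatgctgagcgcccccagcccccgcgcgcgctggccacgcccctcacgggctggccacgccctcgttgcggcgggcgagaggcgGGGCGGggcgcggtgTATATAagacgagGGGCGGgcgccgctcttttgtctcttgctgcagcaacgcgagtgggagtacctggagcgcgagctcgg
Pdlim1, chr1:249040360-249040659, minus strand: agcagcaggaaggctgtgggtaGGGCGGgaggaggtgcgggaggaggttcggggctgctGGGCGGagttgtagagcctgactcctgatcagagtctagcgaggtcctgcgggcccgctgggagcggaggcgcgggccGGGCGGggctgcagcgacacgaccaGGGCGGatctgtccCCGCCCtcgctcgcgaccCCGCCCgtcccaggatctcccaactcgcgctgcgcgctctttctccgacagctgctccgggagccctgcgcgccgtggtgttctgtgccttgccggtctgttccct
Des, chr9:84299376-84299675, plus strand: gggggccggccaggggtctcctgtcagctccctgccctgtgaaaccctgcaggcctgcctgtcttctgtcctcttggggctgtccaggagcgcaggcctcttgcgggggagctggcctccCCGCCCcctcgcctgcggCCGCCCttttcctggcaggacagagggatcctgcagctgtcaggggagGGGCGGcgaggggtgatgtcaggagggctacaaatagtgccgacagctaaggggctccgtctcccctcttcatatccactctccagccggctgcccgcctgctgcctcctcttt
The GC box occurred 3 times in the Tmsb10 window, 6 times in that of Pdlim1 and 3 times in that of Des, and 33.1% of 33469 rat promoters of the same length held at least 1. The TATA motif (TATAAA or TATATA on the gene strand) was found in the Tmsb10 window, and in 13.2% of all promoters. The E-box CANNTG stood in all 3 windows, and in 72.1% of all promoters. The CArG box, the motif read by serum response factor, was not in these letters in any of the 3 windows, and 1.64% of all promoters held it. These are matches of letters and no evidence of a factor at the site.

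Actb, the beta-actin gene, lay on the positive side in each of the 12 rat pairs. Its values in SS were 0.350, 0.113 and 0.206 at 3 days for rats 1, 2 and 3, and 0.528, 0.236 and 0.230 overnight. In SS-13BN/Mcw they were 0.323, 0.209 and 0.364 at 3 days and 0.265, 0.297 and 0.524 overnight. All 4 groups overlapped, and no rat number was highest throughout. The group means were 0.22 ± 0.12 in SS at 3 days, 0.33 ± 0.17 in SS overnight, 0.30 ± 0.08 in SS-13BN/Mcw at 3 days and 0.36 ± 0.14 in SS-13BN/Mcw overnight (SD, n = 3 each). The mean of the 4 groups was 0.30 ± 0.04 (SE), with an adjusted p of 0.000336 (limma, Benjamini-Hochberg over the 822 probes tested). It ranked 31st by value among those probes. Its SD within a group was at most 0.17.

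Tmsb10, which binds actin monomers, was positive in 12 of 12 pairs as well. Its values in SS were 0.482, 0.253 and 0.250 at 3 days and 0.495, 0.501 and 0.178 overnight. In SS-13BN/Mcw they were 0.171, 0.0289 and 0.355 at 3 days and 0.321, 0.556 and 0.491 overnight. The lowest pair was rat 2 of SS-13BN/Mcw at 3 days, and the groups overlapped. Tmsb10 averaged 0.33 ± 0.13 in SS at 3 days, 0.39 ± 0.18 in SS overnight, 0.19 ± 0.16 in SS-13BN/Mcw at 3 days and 0.46 ± 0.12 in SS-13BN/Mcw overnight (SD, n = 3 each). The mean of the 4 groups was 0.34 ± 0.04 (SE, limma adjusted p = 0.00029), the 26th highest of 822 probes.

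Pdlim1, the adaptor at stress fibres, had both arrays in 9 of 12 pairs and was positive in all 9. Its value in SS was 0.285 at 3 days, where rat 1 alone was measured, and 0.470, 0.345 and 0.241 overnight. In SS-13BN/Mcw it was 0.166 and 0.0389 at 3 days for rats 1 and 2, and 0.333, 0.646 and 0.832 overnight. Both 3-day pairs of SS-13BN/Mcw lay below all 3 of its overnight pairs. Pdlim1 averaged 0.60 ± 0.25 in SS-13BN/Mcw overnight (SD, n = 3), the 15th highest of 1100 probes. For want of pairs it was not tested in SS at 3 days, in the strain difference at 3 days or in the mean of the 4 groups.

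Tagln, the smooth muscle actin-binding protein, had the highest values of the set and the widest spread. Its values in SS were 1.59, 0.366 and 0.539 at 3 days and 1.51, 0.265 and 0.502 overnight. In SS-13BN/Mcw they were -0.166, 0.0720 and -0.0832 at 3 days and 0.426, 0.631 and 1.03 overnight. Rat 1 of SS was the highest of its group at both times, and the 3-day pairs of SS-13BN/Mcw lay around 0, below every other pair. Tagln averaged 0.83 ± 0.66 in SS at 3 days, 0.76 ± 0.66 in SS overnight, -0.06 ± 0.12 in SS-13BN/Mcw at 3 days and 0.70 ± 0.31 in SS-13BN/Mcw overnight (SD, n = 3 each). Without rat 1 the SS means were 0.45 at 3 days and 0.38 overnight. The mean of the 4 groups was 0.56 ± 0.12 (SE, limma adjusted p = 0.00535), the 4th highest of 822 probes by value and the 81st by p.

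Des, the desmin gene, took both signs in 3 of the 4 groups. Its values in SS were -0.309, 0.201 and 0.0499 at 3 days and 0.375, -0.345 and 0.253 overnight. In SS-13BN/Mcw they were 0.368 and -0.222 at 3 days for rats 1 and 2, and 0.201, 0.0965 and 0.664 overnight. The pairs of each strain and time overlapped with all others, and 8 of 11 pairs were positive. Its mean of the 4 groups was 0.12 ± 0.09 (SE, limma adjusted p = 0.324). Actg2, the smooth muscle gamma-actin, had a value on 13 of 24 arrays and both arrays in 4 pairs, all overnight: -0.302 and 0.0854 in SS for rats 1 and 3, and -0.217 and -0.0219 in SS-13BN/Mcw for rats 1 and 2. Its strains overlapped, and 3 of 4 pairs were negative. Of the 3 markers of contractile cells, only Tagln passed the test in the mean of the 4 groups, where Actg2 was not tested.

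Myl2, the muscle myosin light chain, lay on opposite sides of 0 in the strains. Its values in SS were 0.0871 and 0.268 at 3 days for rats 2 and 3, and 0.122 and 0.282 overnight for rats 1 and 3. In SS-13BN/Mcw they were -0.144 and -0.225 at 3 days and -0.240 and -0.280 overnight, for rats 1 and 2 at both times. All 4 SS pairs were positive and all 4 SS-13BN/Mcw pairs negative, with 2 pairs in each group. This holds for pairs with a value on both arrays. Of arrays without a partner, rat 3 of SS-13BN/Mcw at 3 days stood at 0.0978 and rat 2 of SS overnight at 0.170. Single SS arrays took both signs, such as -0.0843 and 0.65 in rat 3 overnight. The SS mean minus the SS-13BN/Mcw mean was 0.36 ± 0.13 (SE) at 3 days, with an unadjusted p under 0.05 and an adjusted p of 0.516 over the 824 probes tested by limma. Overnight it was 0.46 ± 0.13, with a limma adjusted p of 0.898 over 1053 probes, where it ranked 5th by unadjusted p. Neither difference passed the threshold of 0.05. After turning by dye they were 0.03 at 3 days and 0.05 overnight, and all 4 group means were positive (0.06 in SS at 3 days, 0.26 in SS overnight, 0.03 in SS-13BN/Mcw at 3 days and 0.20 in SS-13BN/Mcw overnight). All pairs stood on opposite sides of 0 in 3.28% of the probes tested for strain at 3 days and in 1.33% overnight. Most of those probes had all 3 pairs (704 of 824 and 898 of 1053). With 2 pairs a group, as in Myl2, such a split arises by chance more often, so the shares are not like for like. The mean of the 4 groups was -0.02 ± 0.04 (SE, limma adjusted p = 0.80).

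**Figure D1:**
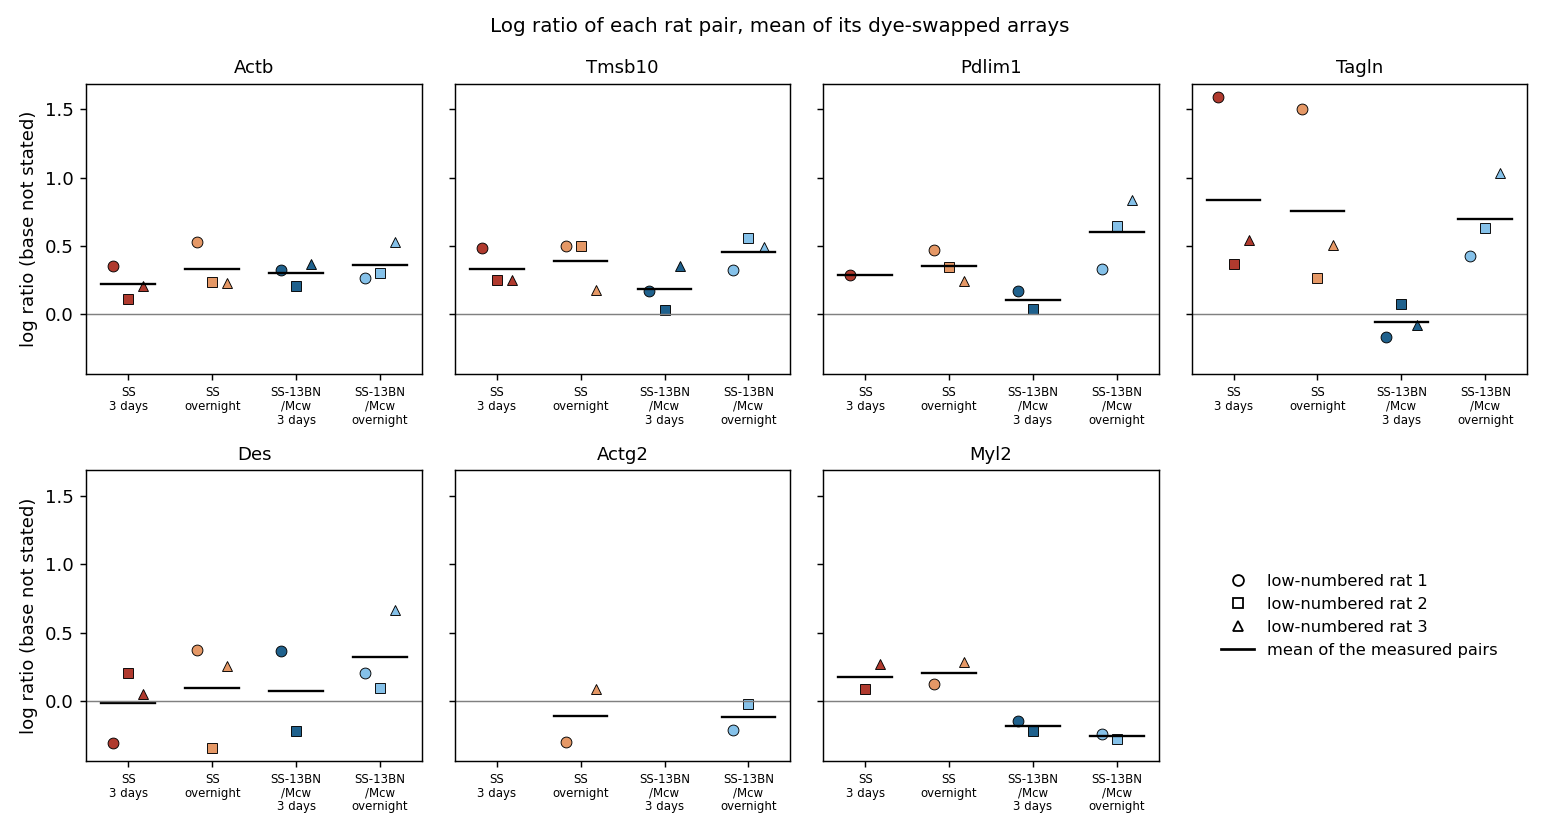
Log ratio (base not stated, vertical axis) of each rat pair for the 7 genes, by group along the horizontal axis. Each point is the mean of the dye-swapped arrays of a pair, its shape gives the low-numbered rat, and the bar is the mean of the measured pairs. Actb and Tmsb10 stay above 0 in 12 of 12 pairs, Tagln lies between -0.166 and 0.0720 in SS-13BN/Mcw at 3 days, and Myl2 is above 0 in SS and below 0 in SS-13BN/Mcw.

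Each group was tested against 0 by limma, with all 12 pairs in 1 fit and Benjamini-Hochberg adjustment over the probes tested. In SS-13BN/Mcw overnight, 3 of the 7 genes passed and all 3 were positive: Pdlim1 (adjusted p = 0.01), Tmsb10 (0.0107) and Actb (0.0195). Of all 1100 probes, 10.5% passed, and 3.18% passed on the positive side. After turning by dye all 3 were negative. The 3 calls depended on single pairs, since 0 genes passed without rat 3 and only Pdlim1 passed without rat 2, where 5 were tested. Calls over all probes fell in the same refits, to 12 of 1022 without rat 3 and 45 of 988 without rat 2. In the fit of that group alone 0 genes and 0 probes passed, with adjusted p of 0.0591 for Pdlim1 and Tmsb10 and 0.0931 for Actb. Tagln had an adjusted p of 0.0817 there, Myl2 of 0.113 on the negative side, Des of 0.202 and Actg2 of 0.556.

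In the other groups 0 genes passed. In SS at 3 days 0 of 5 passed, against 0.34% of all 883 probes, and 3 of 5 had an unadjusted p under 0.05 (Actb, Tmsb10 and Tagln), against 12.2% of probes. In SS overnight 0 of 7 passed, against 1.14% of 1139 probes (0.966% on the positive side), and 4 of 7 had an unadjusted p under 0.05, the same 3 genes and Pdlim1, against 15.3% of probes. The adjusted p there was 0.0592 for Tmsb10, 0.0688 for Actb, 0.139 for Pdlim1 and 0.153 for Tagln. A fit on the 24 single arrays, with the pair as a random block, called 2 genes in SS at 3 days (Tagln and Tmsb10) and 3 in SS overnight (Actb, Tmsb10 and Tagln). Over all probes that fit called 36 of 883 in SS at 3 days and 45 of 1139 in SS overnight. In SS-13BN/Mcw at 3 days 0 of 6 passed, against 2.98% of 907 probes (0.662% positive), and 1 of 6 had an unadjusted p under 0.05, against 16.6% of probes. This was Actb, whose adjusted p was 0.0837. The same array fit called 0 genes there, and 58 of all 907 probes. In SS-13BN/Mcw overnight the array fit also called Tagln (adjusted p = 0.0102), where it called 206 of 1100 probes. After turning by dye, SS at 3 days gave -0.09 for Actb, -0.12 for Tmsb10 and 0.14 for Tagln, and SS overnight gave -0.20 for Actb, -0.07 for Tmsb10, -0.22 for Pdlim1 and -0.01 for Tagln. SS-13BN/Mcw at 3 days then gave -0.15 for Actb, -0.13 for Tmsb10, 0.08 for Pdlim1 and 0.09 for Tagln.

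Over the mean of the 4 groups, 3 of the 5 genes tested passed, all on the positive side: Tmsb10, Actb and Tagln. This share stands against 28.5% of all 822 probes, and 13.4% on the positive side. The median of the 5 genes was 0.30, and that of all probes 0.01. Since the genes were chosen with earlier results of these data known, these shares and medians are descriptions and no test of the set. These 3 calls remained when any single pair was left out, with means of 0.28 to 0.32 for Actb, 0.32 to 0.37 for Tmsb10 and 0.46 to 0.62 for Tagln. The times likely share rats, so a refit without a pair likely kept its low-numbered rat at the other time. No refit left out both pairs of a rat. With the rat as a block the 3 calls also remained, while 174 of 822 probes passed in place of 234. With arrays turned by dye, as if the ratio ran from one dye to the other, Actb stood at -0.14, Tmsb10 at -0.11 and Tagln at 0.07, while Des (0.33) and Myl2 (0.14) passed the threshold in place of Tagln.

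Single arrays showed how far the dyes moved each gene. Actb was higher with the low-numbered rat in Cy3 than in Cy5 in 10 of 12 pairs, by 0.27 ± 0.23 (SD), and Tmsb10 in 12 of 12, by 0.22 ± 0.10. Des was lower in that orientation in 11 of 11 pairs (-0.67 ± 0.36), and Myl2 in 8 of 8 (-0.27 ± 0.24). For Des and Myl2 this difference was larger than any of their group means, and it cancels only where both orientations were measured. Tagln differed by -0.14 ± 0.23, and the dye difference was as large as the pair value in rat 2 of SS at 3 days (0.366 each in size). In SS-13BN/Mcw at 3 days the dye difference of Tagln was larger in size than the pair value in rat 1 (-0.263 against -0.166) and rat 3 (-0.271 against -0.0832). It was smaller in rat 2 (0.0174 against 0.0720). Pdlim1 was higher in 6 of 9 pairs (0.30 ± 0.39) and Actg2 in 3 of 4 (0.16 ± 0.16). Over all arrays with a value, Actb was positive on 22 of 24, Tmsb10 on 23 of 24, Tagln on 21 of 24, Pdlim1 on 17 of 20, Des on 12 of 23, Myl2 on 7 of 18 and Actg2 on 4 of 13.

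**Figure D2:**
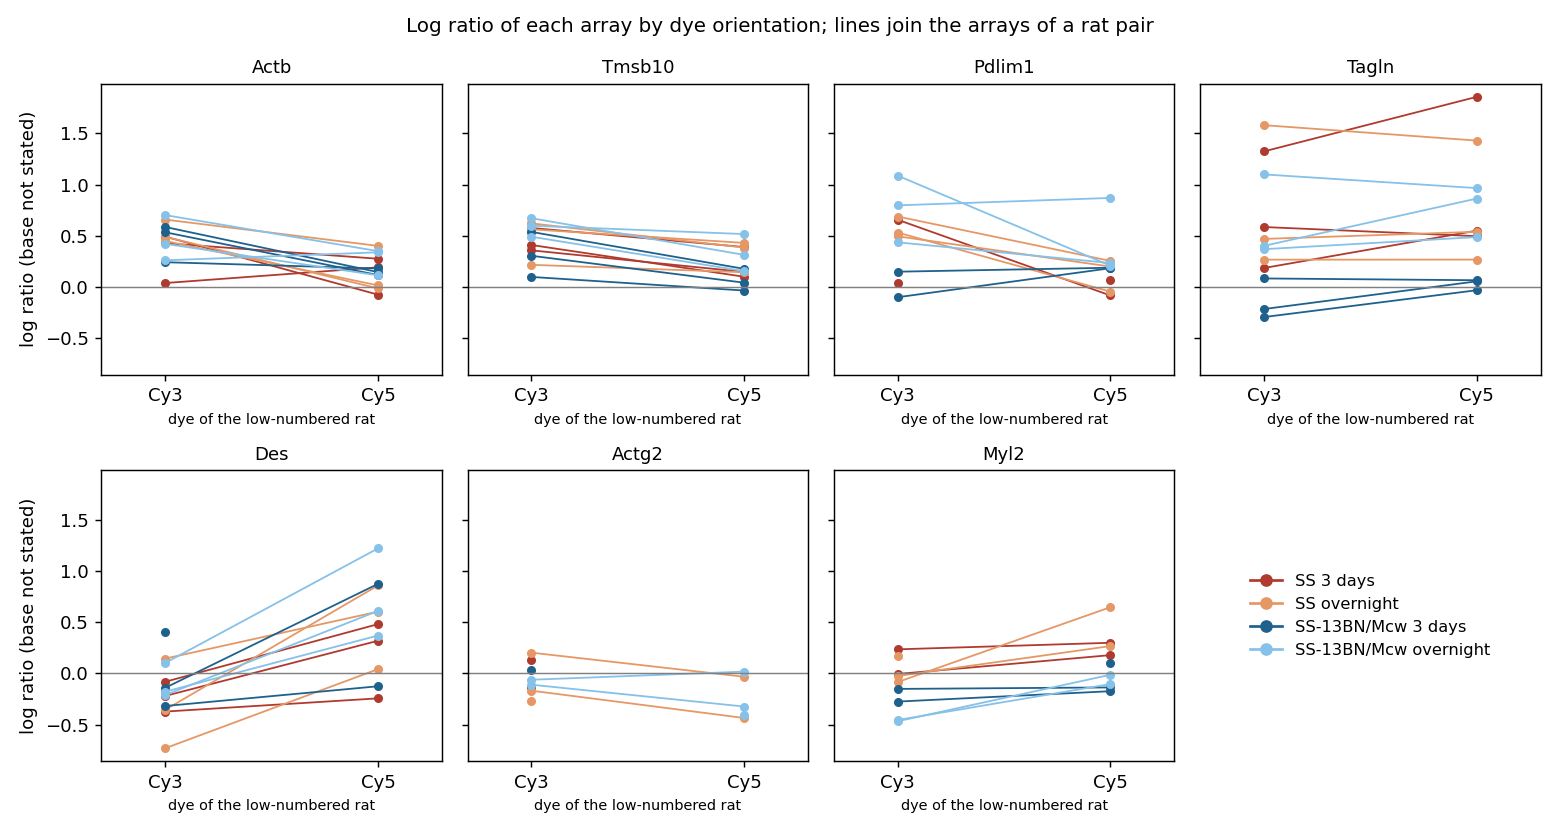
Log ratio of each array (base not stated, vertical axis) by the dye of the low-numbered rat (horizontal axis); lines join the arrays of a pair, and unjoined points are arrays whose partner had no value. The lines of Des climb from Cy3 to Cy5 in all 11 pairs and those of Tmsb10 descend in all 12, while most lines of Tagln stay far above 0.

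The strain difference in the response was not past the threshold for any of the 7 genes. At 3 days 0 of 5 passed, as did 0% of 824 probes, and Tagln and Myl2 had an unadjusted p under 0.05, 2 of 5 against 8.37% of probes. Tagln stood 0.89 ± 0.34 (SE) higher in SS than in SS-13BN/Mcw at 3 days (limma adjusted p = 0.516), the 4th largest positive difference of 824. The groups of Tagln and of Myl2 did not overlap, 2 of 5 genes, which was so for 15.8% of the probes tested. Myl2 had 2 pairs in each group at both times, and groups of fewer pairs fail to overlap by chance more often. Without rat 1 of SS the Tagln difference at 3 days was 0.51. Overnight 0 of 7 passed, as did 0% of 1053 probes, and Myl2 alone had an unadjusted p under 0.05, 1 of 7 against 5.03% of probes. There the groups of Myl2 did not overlap, 1 of 7 genes against 10.9% of probes, and Tagln differed by 0.06 ± 0.34 with groups that overlapped. Whether the strain difference of Tagln itself differs between the times was not tested. Actb differed by -0.08 ± 0.11 at 3 days and -0.03 ± 0.12 overnight, and Tmsb10 by 0.14 ± 0.12 and -0.06 ± 0.13.

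The times likely share rats within a strain, so a second fit of each comparison took the low-numbered rat as a block, here as a fixed effect. In SS-13BN/Mcw, 3 days minus overnight, 0 of 6 genes passed, as did 0% of 897 probes, and Pdlim1 and Tagln had an unadjusted p under 0.05, 2 of 6 against 11.3% of probes. Tagln was lower at 3 days than overnight by a mean difference of -0.76 ± 0.34 (SE, limma adjusted p = 0.427), and with the replicate block the same difference had an SE of 0.12 and an adjusted p of 0.0218, in a fit where 10 of 897 probes passed. The groups of Tagln, Pdlim1 and Myl2 did not overlap, 3 of 6 genes against 22.7% of the probes tested, and 0 of 6 had all pairs on opposite sides of 0, against 5.13%. Pdlim1 and Myl2 had fewer pairs than most probes, and groups of fewer pairs fail to overlap by chance more often. Pdlim1 differed by -0.50 ± 0.15 (limma adjusted p = 0.359), with 2 pairs at 3 days against 3 overnight, and Tmsb10 by -0.27 ± 0.13 (adjusted p = 0.431). In SS, 3 days minus overnight, 0 of 5 passed, as did 0% of 880 probes, and 0 of 5 had an unadjusted p under 0.05. Groups overlapped for all 5, while 7.5% of probes did not overlap and 1.36% had all pairs on opposite sides of 0. There Tagln differed by 0.07 ± 0.34, Actb by -0.11 ± 0.11 and Tmsb10 by -0.06 ± 0.13, all within their error.

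Other genes of actin handling were taken from a list of 82 genes beside the 7, of which 23 had a value. In the mean of the 4 groups 13 of them were tested by 14 probes, of which 10 were positive. Ezr (-0.13, limma adjusted p = 0.0761), Evl (-0.14, 0.094), Tpm3 (-0.13, 0.403) and Pak1 (-0.08, 0.522) were negative. On the positive side 5 probes passed and on the negative side 0, against 13.4% and 28.5% of all probes on the positive side and in both directions, and the list's median was 0.08 against 0.01 for all probes. Those past the threshold were Tmsb4x, a monomer-binding thymosin like Tmsb10 (0.23 ± 0.05, adjusted p = 0.00624), S100a10, the partner of annexin A2 (0.20 ± 0.04, 0.00223), Pfn1, profilin, which feeds monomers to growing filaments (0.18 ± 0.04, 0.00521), and Myl12b, a myosin regulatory light chain of non-muscle cells, by both of its probes (0.11 ± 0.04 and 0.12 ± 0.04, adjusted p = 0.0433 and 0.0449). With the replicate block the Myl12b probes no longer passed (adjusted p = 0.0698 and 0.0893), and after turning by dye all 5 probes had a negative sign. In SS-13BN/Mcw overnight Tmsb4x (0.40, adjusted p = 0.032) and S100a10 (0.31, 0.0207) passed among 15 probes, against 10.5% of all probes in that group. In the limma fit of that group alone neither passed (adjusted p = 0.0899 and 0.1145). S100a10 was also lost without any single pair of the group, and Tmsb4x without rat 2 or rat 3. In the other groups and in the differences 0 probes of the list passed. Positive probes of the list were 10 of 15 in SS at 3 days and 9 of 18 in SS overnight. They were 7 of 14 in SS-13BN/Mcw at 3 days and 9 of 15 overnight. Tmsb4x ranged over its 12 pairs from -0.01 to 0.56 and S100a10 from 0.03 to 0.39.

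The smooth muscle list held 32 further genes, of which 12 had a value. In the mean of the 4 groups 5 were tested, 1 passed on the positive side and 0 on the negative (13.4% of all probes passed on the positive side), and the list's median was 0.05. The gene past the threshold was Csrp1, a LIM protein that binds alpha-actinin and zyxin (0.26 ± 0.05 SE, adjusted p = 0.00313). It averaged 0.22 ± 0.19 in SS at 3 days, 0.27 ± 0.19 in SS overnight, 0.11 ± 0.14 in SS-13BN/Mcw at 3 days and 0.44 ± 0.21 in SS-13BN/Mcw overnight (SD, n = 3 each). In that last group it also passed against 0 (adjusted p = 0.0203), the only one of 6 genes to do so. Of all probes there, 10.5% passed, and 3.18% passed on the positive side. Csrp1 did not pass in the limma fit of that group alone (adjusted p = 0.0906), nor without rat 2 or rat 3. After turning by dye Csrp1 stood at -0.10 in that group and at -0.05 in the mean of the 4 groups. Fhl2, a LIM domain cofactor, stood at 0.08 (adjusted p = 0.252), Tpm1, a tropomyosin of muscle filaments, at 0.05 (0.515) and Cnn3, a calponin, at -0.02 (0.752). Acta2, smooth muscle alpha-actin, named after its values were seen, averaged -0.12 ± 0.38 in SS at 3 days (n = 2), -0.04 ± 0.22 in SS overnight (n = 3), 0.11 ± 0.34 in SS-13BN/Mcw at 3 days (n = 2) and 0.04 ± 0.02 in SS-13BN/Mcw overnight (n = 2). Its highest pair was 0.35, while 8 of the 12 pairs of Tagln reached more than that.

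**Figure D3:**
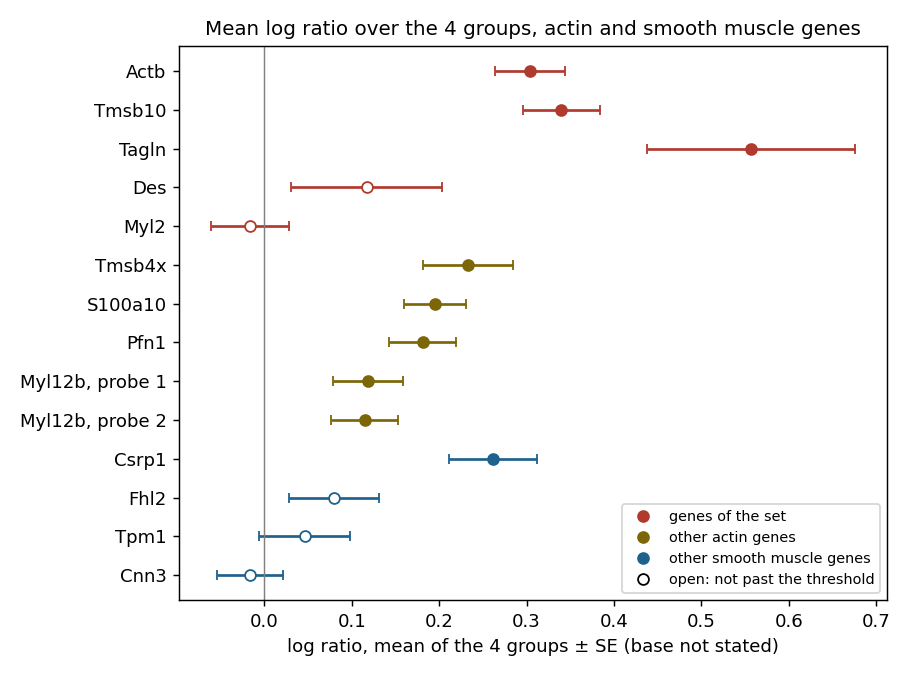
Mean log ratio of the 4 groups with its SE (horizontal axis, base not stated) for the 5 genes of the set that were tested and for the 4 genes with the smallest p in each of the actin cytoskeleton and smooth muscle lists. Negative actin genes such as Ezr and Evl are not shown. Filled points passed the threshold of 0.05; Tagln stands highest at 0.56, and all filled points are positive, with arrays not turned by dye.

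Lists of neighbouring kinds were read beside these, against the same 13.4% and 28.5%. Of the striated muscle list, in which Myl2 would belong, 3 genes were tested in the mean of the 4 groups and 0 passed. Vim, the intermediate filament of mesenchymal cells, was the 1 gene past the threshold among the 2 other filament genes tested (0.26, adjusted p = 0.00962). Of the serum response factor targets, 4 were tested and 1 passed, Ccn2, connective tissue growth factor (0.29, adjusted p = 0.0139, and -0.16 after turning by dye). Vim and Ccn2 were named after their values were seen. The lists share genes and are not separate evidence. Pvalb stood in both the striated muscle list and the distal tubule list read below, and Vim also in the matrix list. Acta2 and Tpm1 stood in both the smooth muscle list and the serum response factor targets.

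The genes most like each gene of the set were sought by Pearson correlation over the 12 pairs, among 595 other named genes measured in all pairs. The genes share arrays and the pairs likely share rats, so these are descriptions. Nearest to Tagln were Mgp, matrix Gla protein, a calcification inhibitor of vessel wall and cartilage (r = 0.949), Apoe, apolipoprotein E (0.944), and Fcgr2a, an Fc receptor of myeloid cells (0.943). Like Tagln, they were near 0 in SS-13BN/Mcw at 3 days, where Mgp averaged -0.04, Apoe -0.03 and Fcgr2a 0.03, and between 0.48 and 0.69 in the other groups. Nearest to Tmsb10 were Il6r, the interleukin-6 receptor (0.946), Tmsb4x (0.893) and Myl12b (0.883). Nearest to Actb were Zmym2, a zinc finger protein (0.842), Csrp1 (0.828) and Ctsh, cathepsin H (0.812). Within the set, r was 0.775 for Tmsb10 and Pdlim1 over 9 pairs, 0.671 for Actb and Pdlim1 over 9, 0.604 for Tmsb10 and Tagln over 12, 0.555 for Actb and Tmsb10 over 12 and 0.0839 for Tagln and Des over 11. Des had r of 0.533 with Pdlim1 over 9 pairs, 0.507 with Actb over 11 and 0.0392 with Tmsb10 over 11.

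Markers of other cell types were read in the same pairs. The mean of 7 fibroblast and matrix genes ran from -0.0188 to 0.827 (median 0.284) in SS at 3 days, from 0.185 to 0.631 (median 0.337) in SS overnight, from -0.0598 to -0.00749 (median -0.016) in SS-13BN/Mcw at 3 days and from 0.220 to 0.770 (median 0.261) in SS-13BN/Mcw overnight. Its highest pair was the one highest in Tagln in SS at both times (rat 1) and in SS-13BN/Mcw overnight (rat 3), and its 3 pairs in SS-13BN/Mcw at 3 days were near 0. In that last group rat 2 was highest in Tagln (0.0720) but lowest in the matrix mean (-0.0598). In SS at both times rat 3 was lowest in the matrix mean and rat 2 in Tagln, while in SS-13BN/Mcw overnight rat 1 was lowest in both. The mean of 10 proximal tubule genes was negative in all 12 pairs: -0.963 to -0.170 in SS at 3 days, -0.654 to -0.313 in SS overnight, -1.02 to -0.774 in SS-13BN/Mcw at 3 days and -1.72 to -0.647 in SS-13BN/Mcw overnight. The lowest pair of its group was the one highest in Tagln in SS at 3 days (rat 1), in SS-13BN/Mcw at 3 days (rat 2) and in SS-13BN/Mcw overnight (rat 3), but in SS overnight it was rat 2, the lowest in Tagln. The mean of 5 thick ascending limb and distal tubule genes had a median of -0.148 in SS at 3 days, -0.170 in SS overnight, -0.0103 in SS-13BN/Mcw at 3 days and -0.216 in SS-13BN/Mcw overnight. For 4 collecting duct genes the medians were -0.0929, -0.0997, 0.105 and -0.0623 in the same order of groups. In the mean of the 4 groups, where 28.5% of all probes passed in either direction and 13.4% on the positive side, 5 of 8 matrix genes passed on the positive side, 12 of 14 proximal tubule genes passed on the negative side and 1 on the positive, 2 of 5 distal genes passed on the negative side and 0 of 4 collecting duct genes passed. The endothelial list had 1 measured gene, Kdr, and the leukocyte and podocyte lists had none with a value in all pairs. The part of these cell types in the result for Tagln was not tested.

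**Figure D4:**
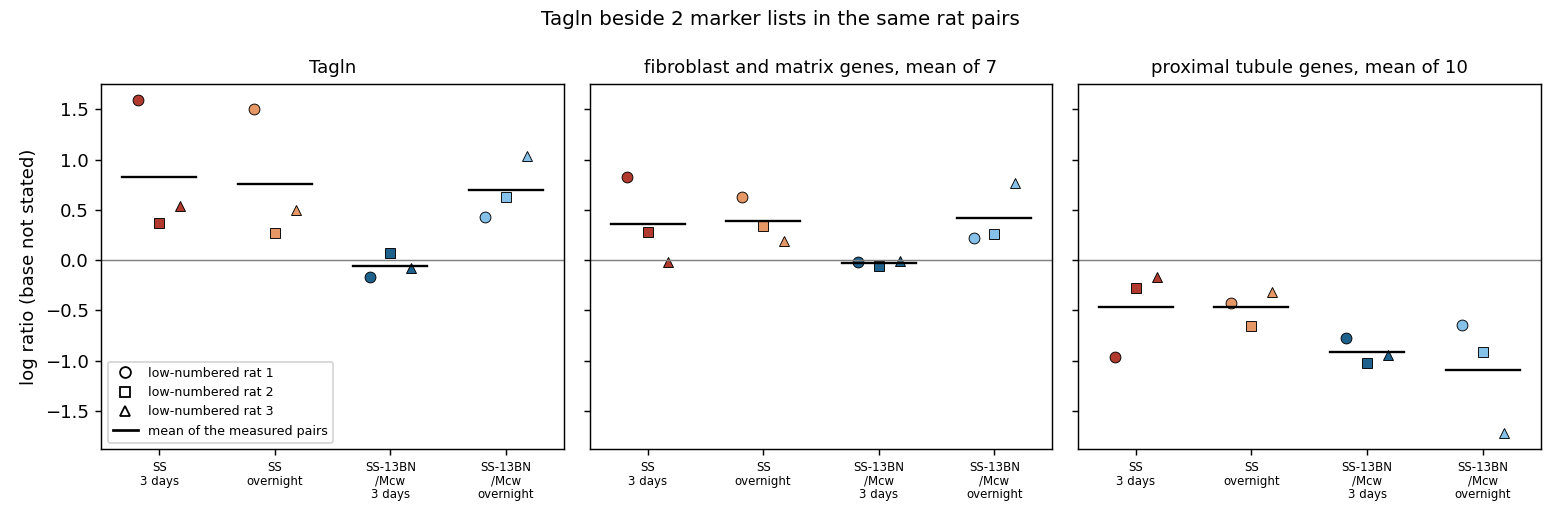
Log ratio (base not stated, vertical axis) of Tagln beside the mean of 7 fibroblast and matrix genes and of 10 proximal tubule genes in the same 12 rat pairs, by group. Point shape gives the low-numbered rat and bars are group means; Tagln and the matrix genes are both near 0 in SS-13BN/Mcw at 3 days, and the proximal tubule mean is below 0 in every pair.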

How the data were processed

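The deposited table holds 1 value per probe and array, a score that is a log ratio of the channels; the sources used here give neither its base and numerator nor the authors' earlier steps. As deposited, each array had a mean near 0 (largest absolute mean 0.000822, median 0.0668), and 0 values were identical between arrays. Symbols came from the platform annotation, updated through a rat gene table (1426 of 1766 measured probes had 1 symbol, 29 several, 311 none, and 1421 matched). Strain, time, rats and dyes came from the array titles. Arrays were centred on the median and not turned by dye, and the arrays of a pair were averaged.

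limma fitted 1 coefficient per group over 12 pairs (at most 8 residual degrees of freedom), with eBayes, two-sided tests and adjustment over all probes tested at 0.05. Testing a probe required both arrays in 2 or more of the 3 pairs of each group involved. The p-values measure the spread between pairs. The titles repeat low-numbered rats at both times. Deviations of the same rat correlated between times at 0.521, 0.0592 and 0.646 in SS and 0.394, 0.285 and 0.213 in SS-13BN/Mcw (consensus 0.285). A fit with that rat as a replicate block therefore stands beside each result whose call it changes. The block entered through a consensus correlation, except in the comparisons of times. There each low-numbered rat was a fixed effect, which left fewer residual degrees of freedom.

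Named genes were the 7 symbols, list genes past the threshold and up to 4 genes of the actin and smooth muscle lists with the smallest p for the mean of the 4 groups, and the 3 most correlated genes for each gene with all pairs. Members and lists were chosen with earlier results of these data known. Alternatives were turning by dye, no centring, scaling, quantile normalization, other filters on missing values, an array-level fit, a fit of only the groups compared, the replicate block and leaving out each pair. Fits were tested on simulated data. Motifs were searched in RefSeq promoters. Versions were limma 3.58.1 and statmod 1.5.0 in R 4.3.3, and pandas 2.3.3 and matplotlib 3.10.9 in Python 3.11.15.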

Additional observations from a re-analysis of the deposited data

Results flagged for a closer look

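Myl2 was singled out because every pair of SS with both arrays was positive and every such pair of SS-13BN/Mcw negative. A single SS-13BN/Mcw array at 3 days, rat 3 without its partner, was positive (0.0978). The SS mean minus the SS-13BN/Mcw mean was 0.36 at 3 days and 0.46 overnight, with 2 pairs in each group. The limma test of the difference itself did not pass at either time (adjusted p = 0.516 and 0.898), and the values of both times likely share rats. After turning by dye the differences were 0.03 at 3 days and 0.05 overnight.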

How the results depend on the processing

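The count of the 7 genes past the threshold moved with the setting, as did calls over all probes. In SS overnight it was 0 as reported (13 of 1139 probes), 3 with arrays turned by dye (325 probes), where the calls were Actb at -0.20, Des and Myl2, 4 with arrays scaled to one spread (51), 4 with quantile normalization (67) and 3 in the array-level fit (45). In SS at 3 days it was 0 as reported (3 of 883), 1 with quantile normalization (18) and 2 in the array-level fit (36), with 344 probes but 0 of the genes after turning by dye. In SS-13BN/Mcw at 3 days it was 0 as reported (27 of 907), 2 after turning by dye (299), which were Des and Tmsb10 at -0.13, 1 after scaling (61) and 1 after quantile normalization (61). Overnight in SS-13BN/Mcw it was 3 as reported (116 of 1100), 1 after turning by dye (309), which was Des, 0 in the fit of that group alone (0) and 0 to 3 with a pair left out. Tagln also passed there after scaling (limma adjusted p = 0.0425, 136 probes), after quantile normalization (0.0154, 140) and in the array-level fit (0.0102, 206). For SS-13BN/Mcw, 3 days minus overnight, the replicate block gave 1 (Tagln, -0.76) in place of 0, with 10 of 897 probes in place of 0, and it changed no other call of the 7 genes. The mean of the 4 groups gave 3, except 4 with single orientations accepted and 4 after turning by dye, where Des (0.33, adjusted p = 1.72e-05) and Myl2 (0.14, 0.00344) replaced Tagln (0.07, 0.0638).

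Turning by dye averaged the arrays of a pair after changing the sign of that with the low-numbered rat in Cy3. The result scales with the difference between the dye orientations but is smaller, with a sign set by the orientation turned. Actb, for example, had a mean dye difference of 0.27 and a turned mean of -0.14. Many values that passed as reported then had the opposite sign, and not all of them passed after turning. Overnight in SS-13BN/Mcw turning gave -0.10 for Actb, -0.13 for Tmsb10, -0.17 for Pdlim1, -0.0362 for S100a10, -0.10 for Csrp1 and -0.28 for Tmsb4x. Of these, only Tmsb4x passed the threshold after turning (limma adjusted p = 0.0047). In the mean of the 4 groups turning gave -0.14 for Actb, -0.11 for Tmsb10, -0.0837 and -0.099 for the Myl12b probes, -0.0212 for S100a10, -0.11 for Pfn1, -0.0465 for Csrp1, -0.16 for Ccn2 and -0.25 for Tmsb4x. There S100a10 and Csrp1 did not pass after turning (limma adjusted p = 0.480 and 0.126), and the others did. The cause of the dye differences was not tested. Calls over all probes for the mean of the 4 groups were 568 after turning by dye and 234 as reported. In the array-level fit they were 58 in SS-13BN/Mcw at 3 days and 206 overnight. With 2 or 3 pairs a group, the number of pairs limits every group value, and Actg2 and Myl2 most.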
